A study of Mus musculus with 32 samples.

Results

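The response of mouse embryonic fibroblasts (MEFs) to 24 h of aphidicolin was compared between a line deleted for ATM and the wild-type line wtATM, its control in the study. Of the 32 RNA-seq libraries of the study, the 8 taken at 24 h from these lines enter this difference of responses. The study followed 4 MEF lines, namely wtATM, an ATM knock-out line, wtATMIN and an ATMIN knock-out line, each given 1 µM aphidicolin (APH) or its solvent DMSO for 4 h or 24 h, with 2 replicates per group. The 4 groups used here were wtATM with DMSO, wtATM with APH, the ATM knock-out with DMSO and the ATM knock-out with APH, all at 24 h, with 2 libraries each. Both lines were grown in the same serum-containing medium. The knock-out allele is not given in the sources used here, and since each genotype is 1 line, genotype and line cannot be told apart. Nothing in the labels ties the 2 replicates of a group to separate cultures, so p-values measure the spread between these libraries, which may be technical. Throughout, the interaction is the log2 APH response of the knock-out line minus that of wtATM. A positive interaction means that the response of the knock-out line lay above that of wtATM, whether by a larger rise or a smaller fall.

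Aphidicolin inhibits the replicative DNA polymerases, which slows forks and exposes single-stranded DNA, a state called replication stress. ATM is a protein kinase that is activated mainly by DNA double-strand breaks and phosphorylates substrates including p53, Chk2 and histone H2AX. It also signals to NF-κB, the transcription factor family behind many chemokine and inflammatory genes. Its relative ATR is the principal kinase at stalled forks, and ATMIN is a cofactor proposed to direct ATM to signals other than breaks.

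The 8 libraries held 14548548 to 18135786 assigned reads, and replicates correlated at 0.9955 to 0.9978 over genes (on the log2 scale of CPM, read counts scaled to the library's size). The rRNA-overlapping transcript Gm42418 ranged from 252.3 to 5754 CPM among them, with the highest value in wtATM APH replicate 1. Fibroblast markers dominated in all 8 libraries, with a summed level of 20100 to 20500 CPM in wtATM and 13400 to 14300 CPM in the knock-out line. Of the 15 markers, Fap had no reads in wtATM, Lum none in wtATM with DMSO, and Thy1, a fibroblast surface marker, was only 0.33 to 0.58 CPM in wtATM against 242 to 276 CPM in the knock-out line. The 12 epithelial markers summed to 164 to 243 CPM in wtATM and 4.06 to 9.85 CPM in the knock-out line. Nearly all of the wtATM sum came from Krt14, with Krt5 at 9.25 to 16.8 CPM, and the defining marker Epcam was at 0. Skeletal muscle markers summed to 32.1 to 38.3 CPM in wtATM and 2.4 to 3.35 CPM in the knock-out line. Neural and glial markers summed to 101 to 113 and 172 to 184 CPM in the same order, and adipocyte markers to 2.37 to 5.34 and 35.9 to 45.7 CPM. The lines differed widely without APH as well. In DMSO, 10965 of 18484 genes tested (59.3%) differed between them, and with APH 11338 (61.3%) did.

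In the interaction, 724 of 18484 genes passed an adjusted p of 0.05, or 3.92% of those tested (Benjamini-Hochberg adjustment of edgeR's quasi-likelihood p-values over all genes). The knock-out response was the higher one for 496 of them (2.68%) and the lower one for 228 (1.23%). With DESeq2's size factors in edgeR the split became 385 higher and 288 lower, although the median interaction over all genes moved only from 0.02 to −0.01. Among the 496 higher genes the median APH response was −0.23 in wtATM and 0.44 in the knock-out line. Among the 228 lower genes the medians were 0.45 and −0.21 in the same order. Most called differences were moderate, and the interaction went beyond 1 log2 unit for 83 of the higher and 47 of the lower genes. The response to APH also differed between the wild-type lines wtATM and wtATMIN, for 2605 genes (14.1%), a larger count than in the ATM pair. APH changed 5309 genes in wtATM (28.7%) and 5160 in the knock-out line (27.9%). The count of 724 depended on which libraries were used, and it fell when any one library other than wtATM APH replicate 2 was left out. The wtATM APH replicates had the lowest correlation among the groups used here, 0.9955.

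**Figure D1:**
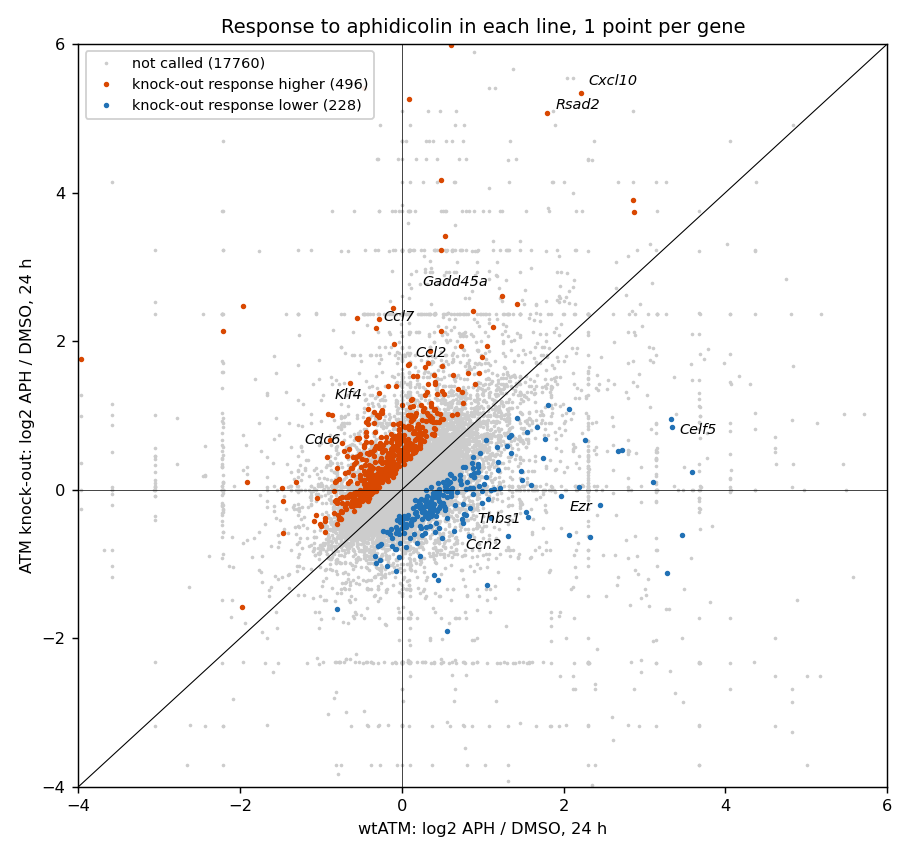
Log2 APH over DMSO at 24 h in wtATM (x axis) and in the ATM knock-out line (y axis), with 1 point per gene tested; orange and blue points are the 496 and 228 genes called higher and lower in the interaction, and the diagonal marks equal responses. Called genes lie on both sides of the diagonal and many have opposite signs in the 2 lines; 65 genes, of which 7 were called, lie outside the plotted range.

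The targeted gene, Atm (GENCODE M21, GRCm38 chr9:53439149-53536740), was measured at 64.2 and 65.1 CPM in wtATM with DMSO, 43.1 and 52.3 CPM in wtATM with APH, 33.2 and 33.2 CPM in the knock-out with DMSO, and 42.2 and 45.5 CPM in the knock-out with APH. The knock-out DMSO libraries were the lowest of the 8, and reads remained in all 4 knock-out libraries. Reads outside a deleted part would still be counted, so this level neither checks the label nor measures the protein. The interaction for Atm was 0.84 ± 0.21 (SE, n = 2 per group, edgeR adjusted p = 0.0224), from a fall of 0.44 in wtATM (adjusted p = 0.0235) and a response of 0.40 in the knock-out line (adjusted p = 0.0543). This call did not persist with library-size scaling alone or without any one library other than wtATM APH replicate 2. Of the kinase genes around it, Atr had an interaction of −0.01, Chek1 0.04 and Chek2 −0.26, and none passed the test.

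Gene groups differed in how many of their members entered the interaction. Chemokine genes had 6 of 23 tested members called, all higher, and NF-κB subunit, inhibitor and inflammatory target genes had 10 of 36, again all higher, against the 2.68% of all genes. Replication and E2F target genes had 13 of 52 called, all higher. Growth factor and IGF axis genes had 6 of 31, and proteases with their inhibitors 5 of 26, each with none lower. YAP-TEAD target genes leaned the other way, with 5 of 24 lower and 2 higher, beside the 1.23% of all genes called lower. By contrast p53 target genes had 3 of 45 higher and 1 lower, and interferon-stimulated genes 4 of 49 higher and none lower. No member was called among 34 integrated stress and unfolded protein response genes, 41 oxidative phosphorylation genes or 50 cytosolic ribosomal protein genes. At an unadjusted p of 0.05 these lists had 7 higher and 2 lower, 1 and 2, and 0 and 0 members, and DESeq2 called none of them.

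**Figure D2:**
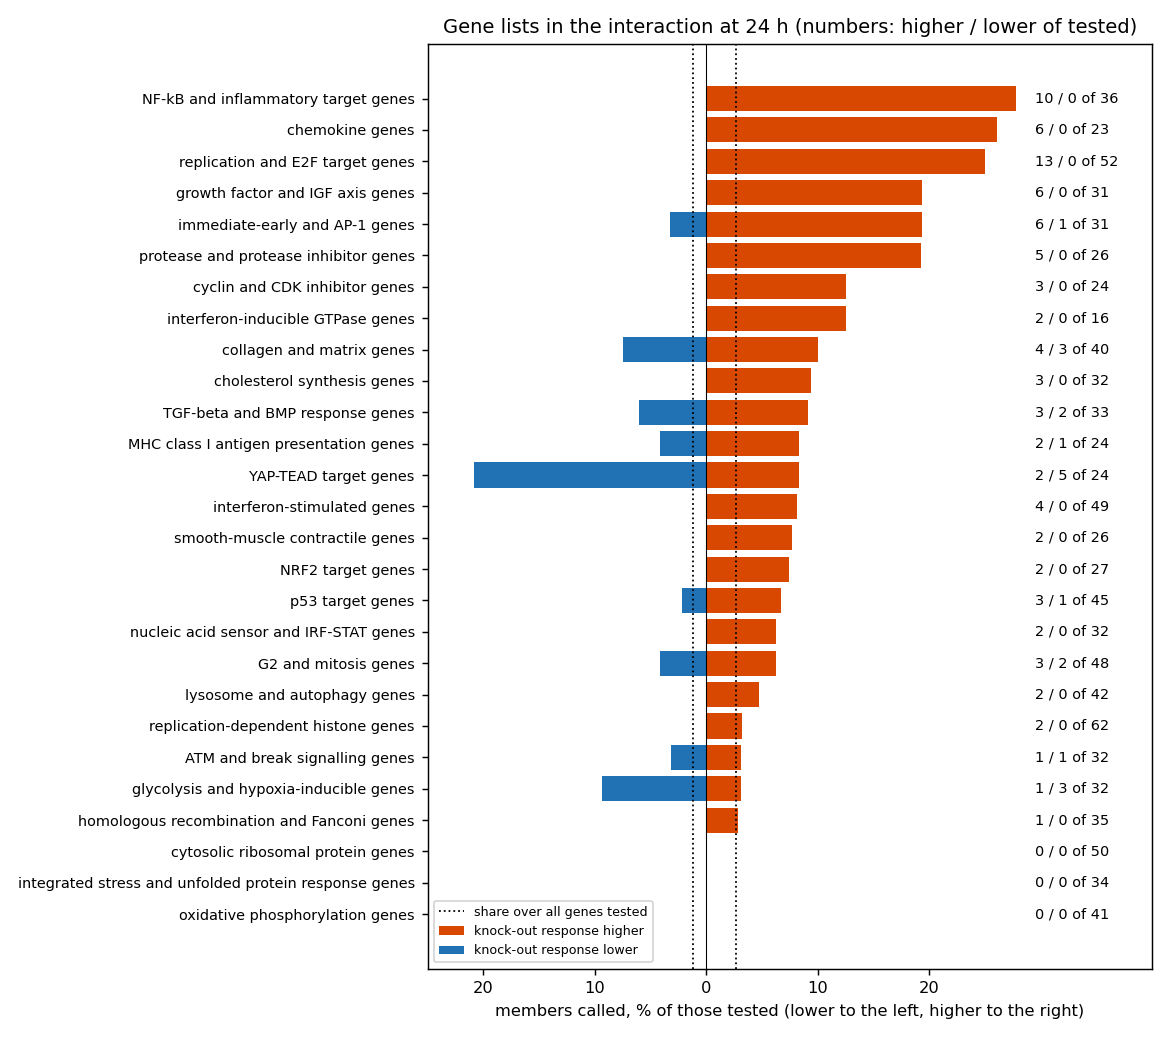
Share of tested members called in the interaction at 24 h for each gene list (x axis, percent; lists on the y axis), with members higher in the knock-out response to the right in orange and lower to the left in blue; dotted lines mark 2.68% and 1.23%, the shares over all genes. NF-κB, chemokine and replication lists reach farthest to the right and the YAP-TEAD list farthest to the left.

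Chemokine genes included large differences of responses. Cxcl10 encodes an interferon- and NF-κB-inducible chemokine that attracts T cells through CXCR3. It stood at 1.82 and 1.1 CPM in wtATM with DMSO, 6.71 and 6.97 CPM in wtATM with APH, 2.4 and 2 CPM in the knock-out with DMSO, and 86.7 and 93.1 CPM in the knock-out with APH. Both lines rose, the groups did not overlap within a line, and the knock-out APH libraries were far above the other 6. The response was 2.21 in wtATM and 5.35 in the knock-out line on the log2 scale, an interaction of 3.13 ± 0.30 (SE, adjusted p = 7.79e-09). The authors' deposited table compared the lines directly and gave Cxcl10 a knock-out to wtATM log2 ratio of 0.587 in DMSO (adjusted p = 0.276) and 3.705 in APH (adjusted p = 5.73e-164).

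The monocyte-attracting chemokines Ccl7 and Ccl2, neighbours in the CC chemokine cluster of chromosome 11, responded in the knock-out line alone by the test. Ccl7 was at 1.71 and 1.86 CPM in wtATM with DMSO, 1.31 and 1.56 with APH, 9.11 and 10.8 in the knock-out with DMSO, and 44.6 and 45.4 with APH. Its wtATM response was −0.32 (adjusted p = 0.481), the knock-out line rose by 2.18, and the interaction was 2.50 ± 0.34 (SE, adjusted p = 6.46e-06). Ccl2 was at 5.06 and 4.36 CPM in wtATM with DMSO, 4.72 and 5.27 with APH, 29.9 and 29.7 in the knock-out with DMSO, and 93.3 and 98.2 with APH. The wtATM groups of Ccl2 overlapped, the knock-out groups did not, and the interaction was 1.60 ± 0.25 (SE, adjusted p = 0.00011). Both genes were thus already higher in the knock-out line before treatment. Cxcl1, a neutrophil attractant, had the opposite starting order, at 33.6 and 32.5 CPM in wtATM with DMSO, 41.9 and 42.3 with APH, 0.959 and 1.22 in the knock-out with DMSO, and 3.42 and 4.57 with APH. It rose in both lines, by 0.35 and 1.87, with an interaction of 1.52 ± 0.26 (SE, adjusted p = 0.000316), while its level in the knock-out line remained below every wtATM library. Cx3cl1 and Cxcl12 completed the 6 called members, with interactions of 0.61 and 0.60. The list's median interaction was 0.60 over its 23 tested members, against 0.02 over all genes, and 0.20 without knock-out APH replicate 2. Blood and macrophage markers, cells that also make chemokines, summed to 33 to 33.5 CPM with DMSO and 38 to 38.9 CPM with APH in the knock-out line, and to 32.8 to 35.1 and 44.9 to 47.7 CPM in wtATM. Of these 14 markers Adgre1, Tyrobp and Cd3e had 0 reads in all 8 libraries, while Cd14, Csf1r, Lyz2 and Cd68 made up most of the sum. In the knock-out line Cd14 was at 20.2 and 17.9 CPM with DMSO and 25 and 23.9 CPM with APH. Csf1r went the other way there, from 9.23 and 10 to 8.24 and 8.22 CPM. Cd68 was at 2.58 and 2.77, then 2.22 and 2.74 CPM, and Lyz2 at 0.18 and 0.515, then 0.571 and 0.913 CPM. Itgam fell from 0.78 and 0.966 to 0.38 and 0.261 CPM, and Ptprc had 3 reads over all 8 libraries. The part of such cells in the chemokine result was not tested.

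NF-κB feedback genes moved alongside. Nfkbia encodes IκBα, the inhibitor that NF-κB induces to switch itself off. It was at 26.4 and 25.4 CPM in wtATM with DMSO, 32.5 and 36.6 with APH, 26.4 and 27 in the knock-out with DMSO, and 68.9 and 74.9 with APH. The lines started level, both rose, and the knock-out APH libraries were highest; the responses were 0.41 and 1.43 and the interaction 1.01 ± 0.14 (SE, adjusted p = 1.54e-05). Nfkb2, the p100/p52 subunit gene, was at 121 and 124 CPM in wtATM with DMSO, 127 and 133 with APH, 156 and 152 in the knock-out with DMSO, and 265 and 276 with APH. It rose in the knock-out line by 0.81 while wtATM gave 0.09 (adjusted p = 0.349), an interaction of 0.72 ± 0.10 (SE, adjusted p = 4.48e-06). Ptgs2, which encodes the inducible prostaglandin synthase COX-2, was at 415 and 419 CPM in wtATM with DMSO, 436 and 445 with APH, 264 and 275 in the knock-out with DMSO, and 490 and 489 with APH. The knock-out line held both the lowest libraries, with DMSO, and the highest, with APH. The interaction was 0.79 ± 0.11 (SE, adjusted p = 2.58e-05). Tnfaip3, the ubiquitin-editing inhibitor A20, went in opposite directions: it fell from 30.4 and 34.4 to 21.6 and 23 CPM in wtATM and rose from 10.9 and 9.34 to 14.5 and 13.3 CPM in the knock-out line. Its interaction of 1.00 ± 0.16 (SE, adjusted p = 9.89e-05) therefore went with a level that remained lower in the knock-out line throughout.

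The remaining called members of the NF-κB list were Tnfaip2, Nfkbie, Vcam1, Relb, Tnip1 and Csf1, with interactions of 1.34, 1.15, 1.10, 0.64, 0.49 and 0.31. They include another IκB inhibitor (Nfkbie), a second subunit of the non-canonical pathway (Relb) and a leukocyte adhesion molecule (Vcam1). Over the 36 tested members, 17 rose and 1 fell with APH in the knock-out line, beside 15.7% and 12.2% of all genes, and 7 rose and 3 fell in wtATM, beside 14.4% and 14.3%. The list's median response was 0.68 in the knock-out line and 0.15 in wtATM.

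The promoters of Cxcl10, Cxcl1 and Nfkbia are shown because their genes stand at the top of the chemokine and NF-κB lists and hold matches to an NF-κB motif. Each line gives the 250 bases before the RefSeq start site (GRCm38, the same assembly as mm10), read 5′ to 3′ on the strand of the gene, with motif matches in capitals.
Cxcl10 promoter, chr5:92348890-92349139, minus strand: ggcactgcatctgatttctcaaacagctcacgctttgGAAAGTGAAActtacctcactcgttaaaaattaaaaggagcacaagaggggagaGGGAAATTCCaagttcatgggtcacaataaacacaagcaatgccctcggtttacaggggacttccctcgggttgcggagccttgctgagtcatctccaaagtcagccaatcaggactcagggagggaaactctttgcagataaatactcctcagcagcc
Cxcl1 promoter, chr5:90890995-90891244, plus strand: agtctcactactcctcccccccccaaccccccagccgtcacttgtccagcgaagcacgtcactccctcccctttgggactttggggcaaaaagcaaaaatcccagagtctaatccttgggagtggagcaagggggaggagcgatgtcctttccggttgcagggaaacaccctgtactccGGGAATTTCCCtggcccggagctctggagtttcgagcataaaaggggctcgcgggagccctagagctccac
Nfkbia promoter, chr12:55492648-55492897, minus strand: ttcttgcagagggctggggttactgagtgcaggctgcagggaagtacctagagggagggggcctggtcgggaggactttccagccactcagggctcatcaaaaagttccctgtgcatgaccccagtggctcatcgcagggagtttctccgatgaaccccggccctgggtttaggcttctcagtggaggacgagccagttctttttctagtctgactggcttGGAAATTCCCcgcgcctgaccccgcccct
The motifs searched on both strands were an interferon response element core, TTTC followed by any 2 bases and TTTC, and an NF-κB site, GGGA followed by any 2 bases and TTCC. In Cxcl10 the capitals are an interferon element match at −213 to −204 and an NF-κB match at −159 to −150 from the start site. In Cxcl1 they are a pair of overlapping NF-κB matches spanning −71 to −61, and in Nfkbia 1 NF-κB match at −29 to −20. Among 11829 promoters of tested genes with a RefSeq entry, 2.63% hold the interferon core and 1.17% the NF-κB site. The promoters of Nfkb2, Tnfaip3 and Ptgs2 were searched in the same way and held no match to this exact NF-κB pattern. Looser forms of the motif were not searched, so NF-κB sites of another form may be present in any of these promoters. The RefSeq starts of Nfkb2 and Tnfaip3 also lie 417 and 247 bases from the gene starts in GENCODE M21. A match is a string of letters and not a measured binding site. Too few members of these lists matched to a promoter, under 80%, for a share over each list to be valid, and Ccl2 and Ccl7 had no entry.

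**Figure D3:**
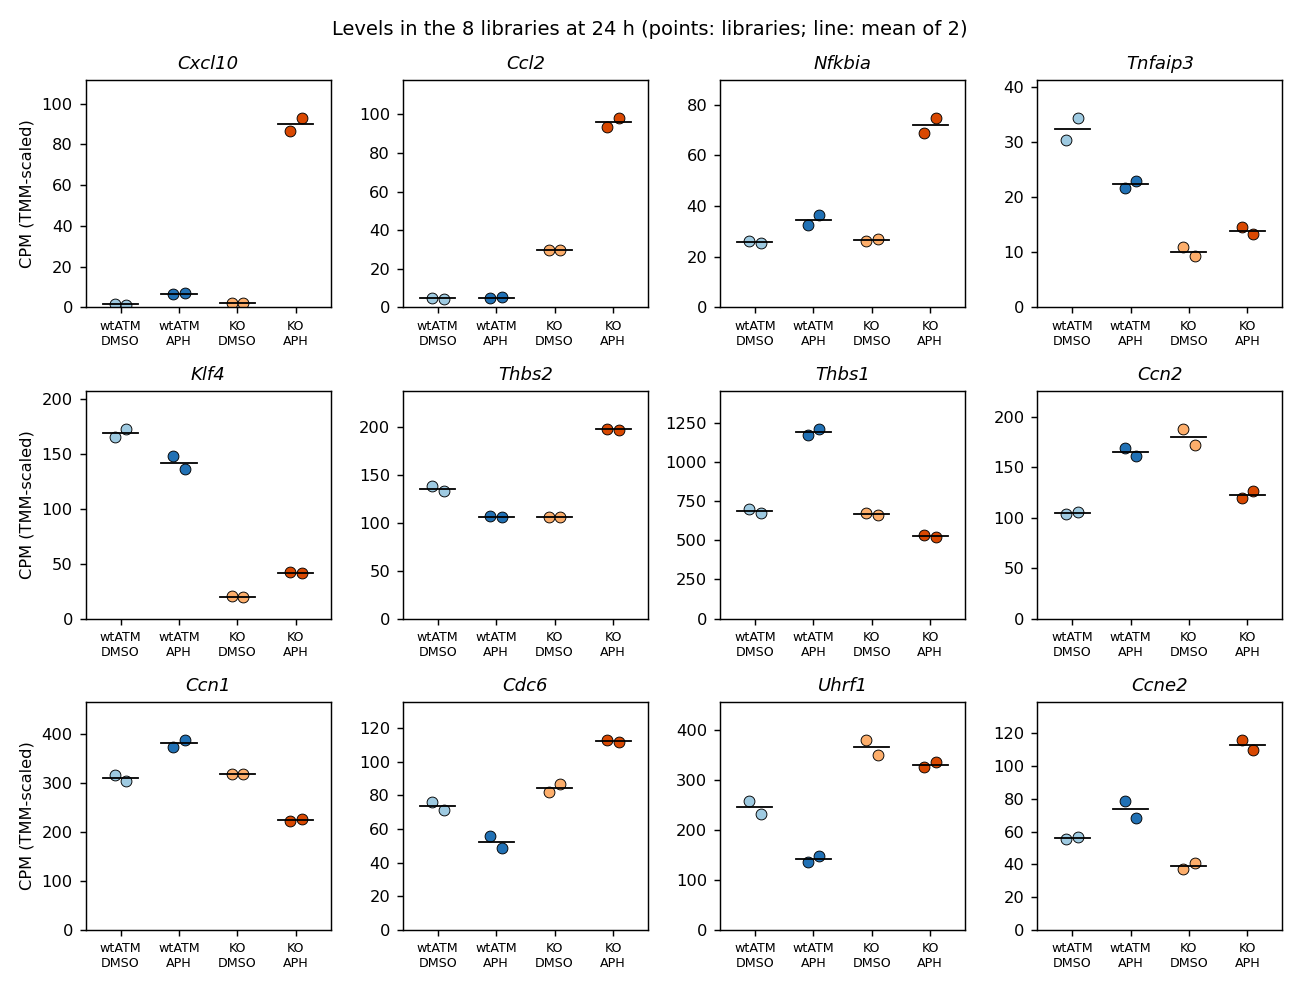
CPM (TMM-scaled, y axis) of 12 genes in the 8 libraries at 24 h, with 1 point per library and a line at the mean of 2 replicates; groups on the x axis are wtATM and the knock-out (KO) with DMSO or APH. Cxcl10, Ccl2 and Nfkbia are highest in the knock-out APH libraries, Thbs1 and Ccn2 rise in wtATM and fall in the knock-out line, and Cdc6 does the reverse.

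Immediate-early genes, which serum and stress induce within minutes, were mixed. Klf4, a zinc-finger regulator of growth arrest and pluripotency, was at 166 and 173 CPM in wtATM with DMSO, 148 and 136 with APH, 20.3 and 19.6 in the knock-out with DMSO, and 42.2 and 41.7 with APH. It fell slightly in wtATM, by 0.25, and rose by 1.07 in the knock-out line, where its level was still the lower one. The interaction was 1.32 ± 0.12 (SE, adjusted p = 2.34e-09). Egr3, Ier5, Dusp1, Klf6 and Fosl2 were also called higher, at 2.01, 0.57, 0.52, 0.39 and 0.35, and Ier3 lower at −0.47. Thus 6 of 31 tested members were higher and 1 lower, beside 2.68% and 1.23% of all genes. Only Klf4 and Ier5 of the members followed individually kept the call under all 16 alternatives, and the count of higher members was 2 to 4 when any one library was left out.

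Growth factor genes and their receptors had 6 members called higher. Pdgfra, the PDGF receptor α chain of mesenchymal cells, was at 76.2 and 70.3 CPM in wtATM with DMSO, 40.8 and 43 with APH, 106 and 104 in the knock-out with DMSO, and 124 and 132 with APH. The fall of 0.81 in wtATM was larger than the rise of 0.29 in the knock-out line, and the interaction was 1.09 ± 0.10 (SE, adjusted p = 3.64e-09). Its partner Pdgfrb was at 75.3 and 74.2 CPM, then 69.4 and 76.1 with APH in wtATM, and at 62.1 and 56.9, then 89.3 and 92.8 with APH in the knock-out line. The wtATM groups of Pdgfrb overlapped and only the knock-out line rose, by 0.61, with an interaction of 0.65 ± 0.11 (SE, adjusted p = 0.000257). Amphiregulin (Areg), a ligand of the EGF receptor, was at 12.5 and 13 CPM in wtATM with DMSO, 9.83 and 8.92 with APH, 6.36 and 6.12 in the knock-out with DMSO, and 9.95 and 11.5 with APH. It fell in one line and rose in the other, with an interaction of 1.22 ± 0.24 (SE, adjusted p = 0.00139). Fgf7, Egfr and Ereg, at 0.68, 0.59 and 0.51, were the other called members. PDGF receptors are also fibroblast markers, and 3 of the 15 fibroblast markers were called, all higher (Pdgfra, Pdgfrb and Dcn), beside 2.68% of all genes. The Dcn call persisted in only 4 of the 16 alternatives and was lost with DESeq2, while Pdgfra and Pdgfrb kept theirs in all 16.

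Extracellular proteolysis genes gave 5 called members of 26. Plau, the urokinase plasminogen activator, was at 258 and 255 CPM in wtATM with DMSO, 299 and 287 with APH, 15.1 and 16.5 in the knock-out with DMSO, and 28.1 and 30.3 with APH. It rose in both lines, more so on the log2 scale in the knock-out line, whose level was far lower throughout. The interaction was 0.69 ± 0.11 (SE, adjusted p = 0.000137). Plat, the tissue-type activator, Mmp14, a membrane collagenase, and the metalloproteinase inhibitors Timp3 and Timp2 followed at 0.60, 0.53, 0.50 and 0.34. Both enzymes and inhibitors were therefore among the members called higher.

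Replication genes had the most called members of any list. Of 52 replication and E2F target genes tested, 26 fell and 4 rose with APH in wtATM, whereas 7 fell and 18 rose in the knock-out line. Over all genes 14.3% fell and 14.4% rose in wtATM, and 12.2% fell and 15.7% rose in the knock-out line. The interaction was positive for 48 of the 52, against 9754 of 18484 genes, with a median of 0.27, and 32 members were higher and none lower at an unadjusted p of 0.05. Adjusted over all genes, 13 members were called higher and none lower, and DESeq2 called 15 higher and none lower. This count was 8 without wtATM APH replicate 1 and 9 to 12 without any other single library. Because MEF cultures cycle, fewer cells of a given cycle stage and less RNA per cell cannot be told apart in these bulk samples.

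Cdc6 loads the MCM helicase at origins together with Cdt1. It was at 76.2 and 71 CPM in wtATM with DMSO, 55.8 and 48.6 with APH, 82.2 and 86.7 in the knock-out with DMSO, and 113 and 112 with APH. It fell by 0.49 in wtATM and rose by 0.42 in the knock-out line, and the groups did not overlap in either line, for an interaction of 0.91 ± 0.10 (SE, adjusted p = 2.94e-07). Ccne2, the cyclin E2 that drives entry into S phase, was at 55.2 and 56.4 CPM in wtATM with DMSO, 78.9 and 68.2 with APH, 37.1 and 40.7 in the knock-out with DMSO, and 116 and 110 with APH. It rose in both lines, by 0.40 and 1.54, with the list's largest interaction among the called members, 1.14 ± 0.19 (SE, adjusted p = 0.000615). Uhrf1, which couples DNA methylation to replication, was at 258 and 232 CPM in wtATM with DMSO, 135 and 148 with APH, 380 and 350 in the knock-out with DMSO, and 326 and 335 with APH. Here the difference lay in a fall of 0.80 in wtATM against a response of −0.14 in the knock-out line (adjusted p = 0.125), and the interaction was 0.66 ± 0.10 (SE, adjusted p = 4.49e-05). Pcna, the sliding clamp of the replicative polymerases, was at 286 and 292 CPM, then 251 and 244 with APH in wtATM, and at 272 and 291, then 335 and 329 with APH in the knock-out line. Its changes were small but opposite, −0.22 and 0.24, with an interaction of 0.46 ± 0.08 (SE, adjusted p = 0.000465). The other called members were Slbp, Cdt1, Mcm10, Mcm6, Pole, Chaf1b, Dut, Rpa2 and Mcm3, at interactions of 0.36 to 0.61, and they span origin licensing, polymerase ε, single-strand binding and chromatin assembly.

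**Figure D4:**
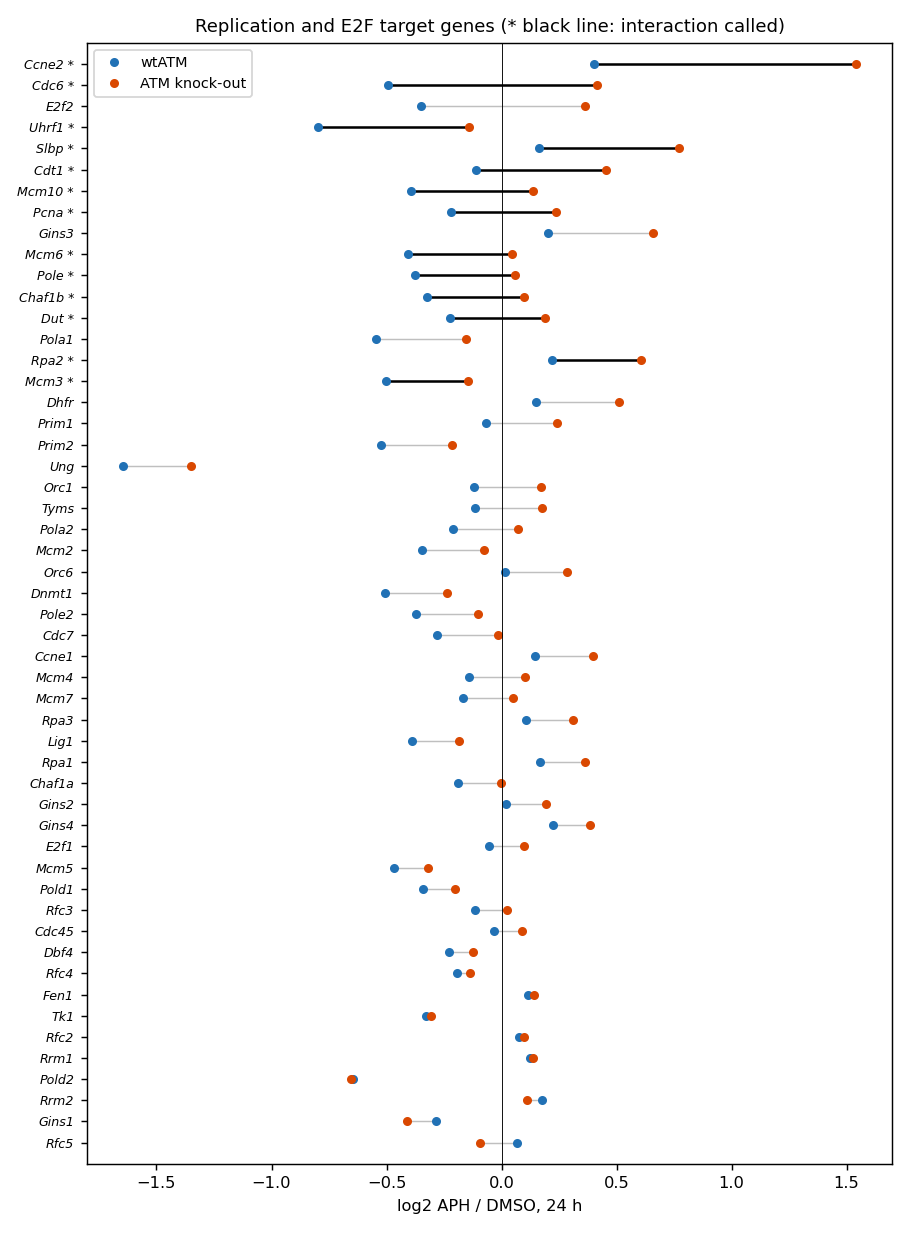
Log2 APH over DMSO at 24 h (x axis) of the 52 replication and E2F target genes tested (y axis, ordered by interaction), in wtATM (blue) and in the knock-out line (orange); black lines and asterisks mark the 13 called genes. The orange point lies to the right of the blue one for 48 of the 52 genes.

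The Cdc6 promoter is shown because Cdc6 had the smallest p of this list and its sequence holds a match to the E2F motif, the element through which many replication genes are controlled.
Cdc6 promoter, GRCm38 chr11:98907901-98908150, plus strand: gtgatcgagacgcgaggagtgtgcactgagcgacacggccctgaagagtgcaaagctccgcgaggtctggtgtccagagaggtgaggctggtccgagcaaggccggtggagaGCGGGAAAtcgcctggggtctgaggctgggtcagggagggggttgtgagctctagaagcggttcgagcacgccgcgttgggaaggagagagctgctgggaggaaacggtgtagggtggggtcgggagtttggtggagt
The capitals mark the match at −138 to −131 from the RefSeq start site. This start lies 350 bases from the start of Cdc6 in GENCODE M21, so the bases shown depend on the annotation used. The letters searched on both strands were TTTCCCGC and TTTGGCGC, which 6 of the 43 promoters matched from this list hold (14.0%), against 2.43% of all 11829. The promoters of Pcna and E2f8 were also searched and held no match to either string, and Ccne2 had no entry. Other forms of the motif were not searched, and the RefSeq start of Pcna lies 134 bases from its GENCODE start.

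The E2F repressors and Myc shifted in the same direction. E2f8, an atypical E2F that represses E2F targets, was at 46.5 and 43.6 CPM in wtATM with DMSO, 27.2 and 29.6 with APH, 50.6 and 51.4 in the knock-out with DMSO, and 54.7 and 54 with APH. It fell by 0.67 in wtATM only, with an interaction of 0.76 ± 0.12 (SE, adjusted p = 6.01e-05). Its close relative E2f7 had an interaction of 0.59. Myc was at 151 and 151 CPM, then 117 and 114 with APH in wtATM, and at 225 and 219, then 239 and 246 with APH in the knock-out line, with an interaction of 0.52 ± 0.09 (SE, adjusted p = 0.000302). These were the 3 members called among 24 cyclin, CDK inhibitor and related genes, with none lower, beside 2.68% higher and 1.23% lower over all genes.

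Genes of G2 and mitosis did not move as a block, with 3 of 48 higher (Mki67, Bub1b and Espl1) and 2 lower (Ube2c and Ccnb2), beside 2.68% and 1.23% of all genes. Leaving out one library at a time gave 1 to 3 higher and 1 or 2 lower members, and Ccnb2 lost its call in 7 of 16 alternatives. Ube2c, the ubiquitin-conjugating enzyme of the anaphase-promoting complex, was at 79.8 and 90.7 CPM in wtATM with DMSO, 114 and 116 with APH, 94.7 and 94.1 in the knock-out with DMSO, and 76.1 and 78.9 with APH. It rose in wtATM and fell in the knock-out line, with an interaction of −0.72 ± 0.11 (SE, adjusted p = 6.09e-05). H2afx encodes H2AX, the histone variant that ATM phosphorylates at breaks. It was at 55.3 and 66.6 CPM in wtATM with DMSO, 33.4 and 36.5 with APH, 31.6 and 29.8 in the knock-out with DMSO, and 9.83 and 10.4 with APH. It fell in both lines, by 0.80 and 1.60, and the interaction was −0.80 ± 0.16 (SE, adjusted p = 0.00144). Apart from Atm, no other member of the 32 ATM and break signalling genes was called, and Fanca, at 0.49, was the single call among 35 homologous recombination and Fanconi genes.

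The p53 response was present in both lines. Of 45 p53 target genes tested, 34 rose and 2 fell with APH in wtATM, and 34 rose and 1 fell in the knock-out line, beside 14.4% and 14.3% of all genes in wtATM and 15.7% and 12.2% in the knock-out line, with median responses of 0.72 and 0.88. Mdm2, the p53 ubiquitin ligase and a direct p53 target, went from 264 and 273 to 878 and 837 CPM in wtATM and from 97 and 105 to 301 and 287 CPM in the knock-out line. The levels were lower in the knock-out line but the responses were close, 1.67 and 1.55, and the interaction was −0.13 ± 0.09 (SE, adjusted p = 0.522). Cdkn1a, the p21 cell-cycle inhibitor, went from 47.7 and 44.4 to 163 and 176 CPM in wtATM and from 27.6 and 24.2 to 79.9 and 81.8 CPM in the knock-out line, with an interaction of −0.24 (adjusted p = 0.587). A p that misses the threshold does not show that the responses were equal. Trp53 itself had an interaction of 0.33 ± 0.08 (SE, adjusted p = 0.0141), which did not pass in 6 of 16 alternatives.

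Among the p53 targets, Gadd45a differed between the lines. This growth-arrest gene, induced by DNA damage through p53 and other factors, was at 13.1 and 12.2 CPM in wtATM with DMSO, 29.3 and 30.2 with APH, 11.8 and 10.3 in the knock-out with DMSO, and 69.5 and 64.7 with APH. Both lines rose from a similar level, by 1.23 and 2.60, and the interaction was 1.37 ± 0.18 (SE, adjusted p = 6.46e-06). Ei24, a membrane protein gene first described as p53-induced, went the other way, from 100 and 104 to 189 and 186 CPM in wtATM and from 56 and 57.1 to 75.6 and 77.7 CPM in the knock-out line. It rose in both, and the interaction was −0.44 ± 0.09 (SE, adjusted p = 0.00198). Epha2, at 0.41, and Pmaip1 were the other 2. Pmaip1, which encodes the pro-apoptotic protein Noxa, had 1 and 3 reads in wtATM with DMSO and 0 and 0 with APH, and it rose in the knock-out line from 106 and 136 to 406 and 390 reads, by 1.76. Its fitted interaction of 5.73 comes in larger part from those few wtATM reads (−3.97, adjusted p = 0.0692) and is no bound, and the call did not hold in 5 of 16 alternatives. Epha2 lost its call in 8, among them DESeq2 and its size factors. The count of 3 p53 targets called higher was 1 without wtATM APH replicate 1 or wtATM DMSO replicate 2.

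Interferon-stimulated genes rose in both lines, 31 of 49 in wtATM and 30 of 49 in the knock-out line, with none lower in either, beside 14.4% and 15.7% of all genes called higher. Their median interaction was 0.18. The 4 called members were Rsad2, Cmpk2, Herc6 and Ifitm3, and leaving out any one library left 0 to 2 members called. Rsad2, the antiviral enzyme viperin, was at 0.055 and 0.29 CPM in wtATM with DMSO, 0.512 and 0.716 with APH, 0.3 and 0.902 in the knock-out with DMSO, and 19.7 and 20.5 with APH. Only the knock-out APH libraries were above 1 CPM, and the interaction was 3.28 ± 0.96 (SE, adjusted p = 0.0465). Rsad2 lost its call in 7 of 16 alternatives, among them DESeq2's size factors and library-size scaling alone. Herc6 lost its call in 9 of 16, Cmpk2 in 10 of 15 and Ifitm3 in 7 of 16. Irf1, the interferon regulatory factor shared with NF-κB signalling, was at 43.5 and 40.8 CPM, then 38.2 and 47.2 with APH in wtATM, and at 18 and 20.6, then 30.4 and 32.6 with APH in the knock-out line. Its wtATM groups overlapped, and the interaction was 0.69 ± 0.14 (SE, adjusted p = 0.00152). Irf1 and Ifi204, at 0.82, were the 2 called members among 32 nucleic acid sensor and IRF-STAT genes. Gbp3 and Gbp2, at 1.07 and 0.80, were those among 16 interferon-inducible GTPases. Over all genes 2.68% were called higher in the interaction. No GTPase was called without knock-out APH replicate 1 or knock-out DMSO replicate 2, and Gbp3 lost its call in 7 of 16 alternatives, among them DESeq2.

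Antigen presentation genes split. Tap1, a subunit of the peptide transporter, rose from 6 and 5.17 to 23.7 and 23.2 CPM in wtATM and from 7.97 and 6.89 to 15.7 and 16 CPM in the knock-out line. From similar starting levels the rise was larger in wtATM, with an interaction of −0.98 ± 0.19 (SE, adjusted p = 0.00144). Tapbp, the tapasin chaperone that works with this transporter, went the other way, at 0.65 ± 0.11 (SE, adjusted p = 0.000355). Erap1, at 0.44, was the remaining call of 24 tested, and its call persisted in only 3 of the 16 alternatives. Shares over all genes were 2.68% higher and 1.23% lower.

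Matricellular genes were among those called lower. Ccn2 (connective tissue growth factor), a classical target of the YAP and TAZ coactivators, was at 104 and 106 CPM in wtATM with DMSO, 169 and 161 with APH, 188 and 172 in the knock-out with DMSO, and 119 and 126 with APH. It rose by 0.65 in wtATM and fell by 0.55 in the knock-out line, with no overlap of groups within either line, and the interaction was −1.20 ± 0.11 (SE, adjusted p = 1.22e-09). Ccn1, its relative CYR61, was at 315 and 304 CPM, then 373 and 387 with APH in wtATM, and at 317 and 317, then 222 and 225 with APH in the knock-out line. The lines started level and parted in opposite directions, with an interaction of −0.80 ± 0.10 (SE, adjusted p = 9.4e-07). Ankrd1, a stretch-responsive ankyrin repeat gene, was at 111 and 109 CPM, then 118 and 119 with APH in wtATM, and at 313 and 320, then 240 and 227 with APH in the knock-out line. It fell by 0.44 in the knock-out line while wtATM gave 0.11 (adjusted p = 0.238), and its interaction was −0.55 ± 0.09 (SE, adjusted p = 0.000302). F3 and Crim1, at −0.48 and −0.40, were the other 2 called lower. Wwtr1, which encodes TAZ, and the DNA-binding partner Tead4 were called higher, at 0.37 and 0.66, with 0 or 1 member called higher without any one library. The median interaction of the 24 members was 0.08, so the list did not shift as a whole, and 3 in place of 5 members were called lower without the knock-out APH replicate 2, the knock-out DMSO replicate 2, the wtATM APH replicate 1 or the wtATM DMSO replicate 1 library.

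Promoters of the YAP-TEAD targets Ccn1 and Ankrd1 are shown with the TEAD motif GGAATG, read on both strands, in capitals.
Ccn1 promoter, GRCm38 chr3:145649986-145650235, minus strand: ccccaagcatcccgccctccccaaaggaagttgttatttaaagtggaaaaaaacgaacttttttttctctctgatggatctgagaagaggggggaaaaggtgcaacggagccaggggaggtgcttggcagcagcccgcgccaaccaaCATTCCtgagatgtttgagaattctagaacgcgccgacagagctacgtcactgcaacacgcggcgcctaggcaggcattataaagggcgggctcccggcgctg
Ankrd1 promoter, GRCm38 chr19:36119845-36120094, minus strand: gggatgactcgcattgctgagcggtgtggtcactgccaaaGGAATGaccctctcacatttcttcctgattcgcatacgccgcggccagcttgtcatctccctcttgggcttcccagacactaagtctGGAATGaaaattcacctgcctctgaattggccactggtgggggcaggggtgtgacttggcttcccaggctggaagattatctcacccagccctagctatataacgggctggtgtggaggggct
In Ccn1 the match lies at −103 to −98 from the RefSeq start site, and in Ankrd1 at −210 to −205 and at −123 to −118. The RefSeq start of Ankrd1 lies 255 bases from its gene start in GENCODE M21. This short motif is common, in 10.7% of the 11829 promoters. Ccn2 and Thbs1 had no entry.

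Matrix genes diverged within a family. Thbs1, thrombospondin 1, an activator of latent TGF-β, was at 696 and 673 CPM in wtATM with DMSO, 1170 and 1210 with APH, 676 and 663 in the knock-out with DMSO, and 530 and 523 with APH. Its paralogue Thbs2 was at 138 and 133 CPM, then 107 and 106 with APH in wtATM, and at 106 and 106, then 198 and 197 with APH in the knock-out line. Thbs1 rose by 0.79 in wtATM and fell by 0.35 in the knock-out line, while Thbs2 fell by 0.35 and rose by 0.90. Their interactions were −1.14 ± 0.11 (SE, adjusted p = 1.69e-08) and 1.24 ± 0.09 (SE, adjusted p = 1.73e-11). Col5a2, a chain of fibril-nucleating collagen V, was at 1530 and 1420 CPM, then 1470 and 1450 with APH in wtATM, and at 927 and 936, then 567 and 564 with APH in the knock-out line. Only the knock-out line changed, by −0.72, and the interaction was −0.70 ± 0.08 (SE, adjusted p = 5.46e-07). Plod2, a collagen lysyl hydroxylase, was the third lower member, at −0.67 ± 0.12 (SE, adjusted p = 0.000716). Of all genes, 1.23% were called lower and 2.68% higher. These 3 lower calls among 40 collagen and matrix genes held without any one library. The 4 members called higher were Thbs2, Vcan, Dcn and Col4a1, and 1 or 2 members were called higher without any one library.

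Smaller numbers of calls came from other lists. In the TGF-β and BMP list of 33, Tgfb1, Inhba and Ltbp2 were higher and Tgfb3 and Fst lower. Tgfb1 was at 11.8 and 14.6 CPM, then 13.2 and 13.3 with APH in wtATM, and at 25.7 and 26.4, then 46.5 and 47.9 with APH in the knock-out line, an interaction of 0.85 ± 0.16 (SE, adjusted p = 0.000878). Among 32 glycolysis and hypoxia-inducible genes, Pfkfb3, Pfkm and Slc2a1 were lower, at −0.87, −0.60 and −0.46, and Ndrg1 higher, at 0.65. The first pair are a regulator and an isoform of phosphofructokinase, and Slc2a1 is the glucose transporter GLUT1. Lists with 2 higher members each and none lower were NRF2 targets (Osgin1 and Gstm2, of 27 tested) and lysosome genes (Npc1 and Ctsl, of 42). The same held for contractile genes (Zyx and Csrp1, of 26) and replication-dependent histone genes (Hist1h2bc and Hist1h1c, of 62). Over all genes 2.68% were called higher and 1.23% lower. The median interaction of the histone list was −0.23, and at an unadjusted p of 0.05 it had 4 higher and 6 lower members. Tgfb1, Pfkm and Ndrg1 kept their calls under all 16 alternatives. Leaving out one library at a time gave 0 to 3 higher members each for NRF2 targets, lysosome and contractile genes, 0 or 1 for histones, 1 to 3 for the TGF-β list with 0 to 2 lower, and 1 to 3 lower members for glycolysis. Histone calls thus depended on which libraries were used, and the list's median interaction was −0.327 to −0.023 without any one library.

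The largest interactions mostly came from genes nearly silent in one line or group. Krt16, a stress-inducible keratin, had 308 and 306 reads in wtATM with DMSO, 199 and 176 with APH, 0 and 0 in the knock-out with DMSO, and 83 and 88 with APH. It fell by 0.61 in wtATM and was at least 59.1-fold higher with APH than with DMSO in the knock-out line, counting 3 reads as the floor over the DMSO group. This call held under all 16 alternatives. Krt14, an epithelial marker, rose from 3 and 2 to 9 and 16 reads in the knock-out line while falling by 0.55 in wtATM, and its interaction of 2.87 ± 0.56 (SE, adjusted p = 0.00144) was lost without the knock-out APH replicate 2 library. The epithelial markers summed to at most 243 CPM with DMSO and 165 CPM with APH in wtATM, and to 4.06 to 4.14 and 7.92 to 9.85 CPM in the knock-out line, and their part in these keratin results was not tested. Sytl1 and Sh3tc2 had 0 reads in both knock-out DMSO libraries and 9 and 6, and 2 and 7, with APH, at least 5.16-fold and 3.13-fold higher. Their interaction calls were lost in 3 and 7 of 16 alternatives, for Sh3tc2 also with DESeq2.

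On the lower side, Celf5, an RNA-binding protein gene, was at 2.2 and 1.92 CPM in wtATM with DMSO, 19.3 and 22.7 with APH, 4.44 and 3.61 in the knock-out with DMSO, and 7.1 and 7.44 with APH. It rose in both lines, by 3.34 and 0.85, with an interaction of −2.49 ± 0.28 (SE, adjusted p = 2.76e-07). Ezr, which encodes the membrane-cytoskeleton linker ezrin, was at 1.43 and 1.1 CPM in wtATM with DMSO, 5.12 and 4.82 with APH, 127 and 131 in the knock-out with DMSO, and 120 and 122 with APH. The rise of 1.96 in wtATM thus began from a DMSO level 6.66 log2 units below the knock-out line, whose own response did not pass the test (−0.09, adjusted p = 0.383), and the interaction was −2.05 ± 0.21 (SE, adjusted p = 1.69e-08). Ypel2 was at 0.66 and 0.813 CPM, then 5.57 and 4.1 with APH in wtATM, and at 3.48 and 2.7, then 4.25 and 4.76 with APH in the knock-out line, an interaction of −2.18 ± 0.38 (SE, adjusted p = 0.000436). Ripk4, Tspan13 and Begain rose in wtATM from 1 or 2 reads per group to at most 12 reads per library. Their ratios and 95% counting intervals were 12.4 (3.42 to 102), 15.4 (2.76 to 608) and 9.64 (2.67 to 79.6). These intervals cover counting error only. The interaction calls of Ripk4, Tspan13 and Begain were lost in 5, 10 and 4 of 16 alternatives, for Tspan13 and Begain also with DESeq2.

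The same contrast was then read at 4 h and in the ATMIN pair, whose libraries do not enter the ATM difference at 24 h except through the shared estimate of spread. At 4 h the ATM pair gave 2101 called genes (11.4%), but the first knock-out APH library of that time stood apart, with Gm42418 at 97900 CPM, the highest of all 32 libraries, and the second had the fewest reads of all, 9321329. The count was 4813 without the first, 654 without the second and 4 when the 4 h groups were fitted alone. Of the 724 genes called at 24 h, 143 were also called at 4 h, which is 19.8% of the former and 6.81% of the latter, 87 with the same sign and 56 with the opposite one. In the ATMIN pair at 24 h, the knock-out response differed from its own wild type for 450 genes (2.43%). There 78 genes were shared, 10.8% of the 724 and 17.3% of the 450, and 38 had the same sign and 40 the opposite one.

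Cytokine and replication genes were set side by side across the pairs. In the ATMIN pair, no NF-κB list member was called higher and 6 of 36 were lower, and of the chemokines none was higher and 5 of 23 lower, beside 1.01% and 1.42% of all genes. Cxcl10, Ccl7 and Ccl2 had ATMIN interactions of −0.83, −1.02 and −1.42, each past the test (adjusted p of 0.000183, 0.00049 and 1.75e-06). The difference between the ATM and ATMIN interactions was itself tested and was called for 497 genes (2.69%), of which 362 (1.96%) were higher and 135 (0.73%) lower in the ATM pair. It was called higher for 12 of 36 NF-κB members and 7 of 23 chemokines, and lower for none of either. For replication and E2F targets, on the other hand, the ATMIN interaction had 11 of 52 higher and none lower with a median of 0.24, near the 0.27 of the ATM pair. The difference was called higher for none of the 52 and lower for 1. Pcna was at 0.46 and 0.42 in the 2 pairs, E2f8 at 0.76 and 0.68, and Cdc6 at 0.91 and 0.40. For p53 targets, 11 of 45 were called lower in the ATMIN pair, and the difference was called higher for 12 and lower for none.

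**Figure D5:**
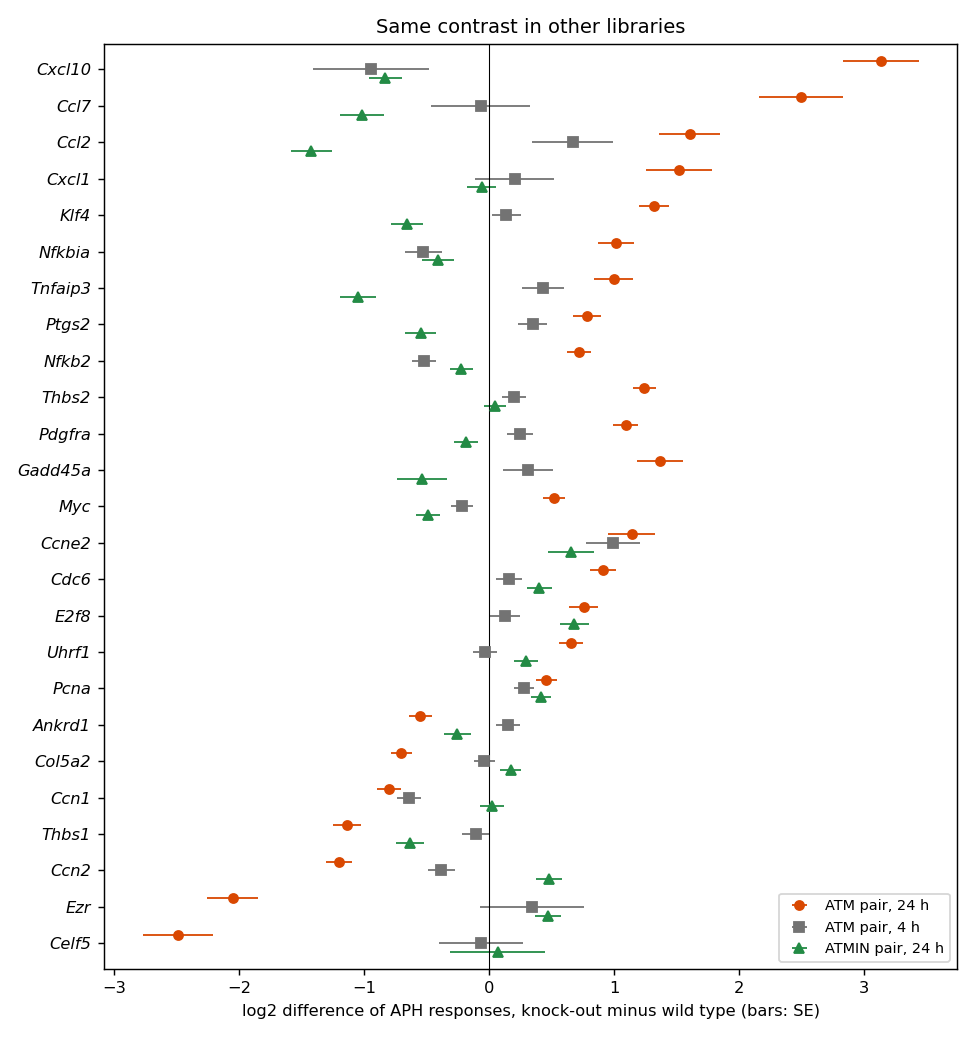
Difference of APH responses, knock-out minus wild type, on the log2 scale with SE bars (x axis) for 25 named genes (y axis), in the ATM pair at 24 h (orange), the ATM pair at 4 h (grey) and the ATMIN pair at 24 h (green). Cxcl10, Ccl7 and Ccl2 are positive in orange and negative in green, and Cdc6, E2f8 and Pcna are positive in both.

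The 24 h interaction was also tested against that at 4 h, and 684 genes differed (3.7%), 469 higher at 24 h (2.54%) and 215 lower (1.16%). The 4 h interaction was −0.94 for Cxcl10 (adjusted p = 0.198), −0.53 for Nfkbia (adjusted p = 0.018) and −0.52 for Nfkb2 (adjusted p = 0.000873), in each case of opposite sign to 24 h. Ccn1 and H2afx, by contrast, were already negative at 4 h, at −0.64 (adjusted p = 0.000115) and −0.74 (adjusted p = 0.00167). Of the 36 NF-κB members, 7 were higher at 24 h than at 4 h and none lower. Beside these stand values of the wtATMIN response minus the wtATM response, which uses the same wtATM libraries. It was called higher for 10 of 36 NF-κB members and lower for 2, for 12 and 1 of 52 replication genes and for 2 and 2 of 23 chemokines, against 6.43% and 7.66% of all genes. It was 1.81 for Ccl2, 0.88 for Nfkb2, 0.49 for Uhrf1, −0.76 for Ccn2 and −0.99 for Thbs1, beside ATM interactions of 1.60, 0.72, 0.66, −1.20 and −1.14. It was 0.19 for Cxcl10, 0.24 for Klf4, 0.24 for Pdgfra, −0.25 for Thbs2 and −0.09 for Gadd45a, and none of these 5 passed the test, beside ATM interactions of 3.13, 1.32, 1.09, 1.24 and 1.37.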

How the data were processed

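RNA was measured in 32 libraries; per the labels' protocols it was TRIzol-extracted total RNA made into libraries with the TruSeq RNA v2 kit. The deposited table holds raw read counts for 39017 Ensembl genes, and the authors' deposited comparison tables give log2 fold changes and adjusted p-values. The tools listed for the reads, per the submitters' processing notes, are TopHat2 2.0.13, Bowtie2 2.4.0 and DESeq2 1.6.3, with mm10 as the build; the counting tool, strand setting and Ensembl release are not given in the sources used here, so reads of overlapping or antisense genes and near-identical copies may be shared. Column names with AT and UT were read as APH and DMSO. Another 120 columns of per-sample values were not used. Symbols came from GENCODE M21 for 37607 genes and from the authors' tables for 198, and 1212 had none.

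The counts were tested in edgeR 4.0.16 (R 4.3.3, limma 3.58.1) with its default low-count filter by group, TMM scaling and robust quasi-likelihood fits of all 32 libraries in 16 groups, which share 1 estimate of spread, since a group has 2 libraries; 18484 genes were tested and the common biological coefficient of variation was 0.0643. Benjamini-Hochberg adjusted p under 0.05 made a call. The standard error is the log2 difference over the root of F. CPM uses TMM-scaled library sizes. The script was tested on simulated data.

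Alternatives were DESeq2 1.42.0, other scalings, no filter, a replicate block, the compared groups alone, and leaving out each library; 2 were added after seeing the data. Named genes were Atm, Trp53, Mdm2, Cdkn1a, Chek1, Chek2 and Atr, the 10 highest and 10 lowest interactions among called genes with a mean log2 CPM of at least 1, and up to 4 members per list with the smallest p. Members named beyond that to complete a count, and genes quoted for other contrasts, were chosen after their values were seen. The members and lists were chosen with earlier results of these data known. Promoters are RefSeq GRCm38, matched for 11829 of 18484 genes.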

Additional observations from a re-analysis of the deposited data

Results flagged for a closer look

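The ATM interaction at 24 h differed, by a test of the difference itself, from the ATMIN interaction at 24 h for 497 genes and from the ATM interaction at 4 h for 684 genes. For Cxcl10 the difference was 3.96 against ATMIN and 4.08 against 4 h on the log2 scale, and for Ccl7 3.51 and 2.56. Rsad2 differed from the ATMIN pair by 5.20, Sema6b by 2.83, Mdm2 by 0.69 and Trp53 by 0.53, and Trp53 differed from 4 h by 0.43. On the lower side, Begain differed from the ATMIN pair by −3.61, Ypel2 by −2.79, Celf5 by −2.56, Ezr by −2.52 and Scamp5 by −2.27. Against 4 h, Car12 differed by −2.88, Ypel2 by −2.69, Celf5 by −2.43, Ezr by −2.39, Chek1 by −0.997 and Chek2 by −0.88. The checkpoint kinase genes Chek1 and Chek2 had 4 h interactions of 1.03 and 0.63 and were not called at 24 h. Krt16 differed by 8.93 against ATMIN and 9.82 against 4 h, Sytl1 by 6.92 against ATMIN and Itga2 by 6.86 against 4 h. These genes and Begain have groups of 0 to 3 reads. The size of their fitted values therefore depends on the prior count and is no bound. All comparisons with 4 h include the knock-out APH libraries of that time: the count of 684 was 3058 without the first, which stood apart, and 507 without the second.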

How the results depend on the processing

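The interaction gave 724 calls, 1328 with the 24 h libraries only, 1096 without the ATM knock-out APH 4 h libraries, and 366 to 728 leaving out one library. The knock-out response count was 3346 to 3566 leaving out one library, against 5160. The 4 h interaction count was 4 with its groups alone and 568 to 4813 leaving out one library, against 2101. The ATMIN count was 1514 with its groups alone, 1015 with 24 h libraries only, 722 without the 4 h libraries named above and 219 to 319 leaving out one, against 450. The 24 h minus 4 h count was 1055 with library sizes only, 1286 without a filter, 185 with its groups alone and 329 to 3058 leaving out one, against 684. The ATM minus ATMIN count was 1032 with its groups alone or 24 h libraries only, 829 without the 4 h libraries and 300 to 523 leaving out one, against 497. The cause of these shifts was not tested. Leaving out one library gave Chek1, 0.04, a range of −0.09 to 0.17 and Atr, −0.01, one of −0.08 to 0.06. Chek1 reversed to −0.02, −0.09 and −0.03 without knock-out DMSO replicate 1, wtATM APH replicate 2 and wtATM DMSO replicate 2. Atr became 0 without knock-out APH replicate 2, 0.06 without knock-out DMSO replicate 2, 0.03 without wtATM APH replicate 2 and 0.06 without wtATM DMSO replicate 1. Same-numbered replicates correlated at −0.343 to 0.186 in their deviations from the group means. These values do not tell whether same-numbered replicates share a culture or batch. With the replicate block 699 genes were called, 687 of them among the 724. With 2 libraries a group, small differences and genes of a few reads are the least certain.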

Other observations

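Some genes separated the ATM pair at 24 h whatever the treatment. On chromosome 4, Mllt3, Focad, Hacd4, Klhl9, Mtap, Cdkn2a, Cdkn2b and Elavl2 lie between 87769925 and 91400785 (GRCm38). Cdkn2a, which encodes the p16 and ARF tumour suppressors, was at 23.5 to 33.4 CPM in the 4 wtATM libraries and 0.254 to 0.58 CPM in the 4 knock-out libraries. Mtap, a methionine salvage enzyme beside it, was at 201 to 296 CPM in wtATM and 0.317 to 0.966 CPM in the knock-out line. Hacd4 and Elavl2 had 0 reads in all 4 knock-out libraries. Trim25 on chromosome 11, a ubiquitin ligase of the RIG-I pathway, was at 53.4 to 60.6 CPM in wtATM and 0.18 to 0.444 CPM in the knock-out line, and Trp63 on chromosome 16 at 76.1 to 90.2 and 0.06 to 0.507 CPM. The Y-linked genes Ddx3y, Eif2s3y, Kdm5d and Uty were at 114 to 144, 60.1 to 71.6, 41 to 47.7 and 31.3 to 34 CPM in the knock-out line and at most 0.275 CPM in wtATM. The X-linked Xist was low in both lines, at 0.716 to 1.05 CPM in wtATM and 0.888 to 1.09 CPM in the knock-out line. None of these genes was called in the interaction. Their part in the APH responses described above was not tested.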
